A study of Mus musculus with 25 samples.

Results

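Muscles rich in adipocyte transcripts were set against muscles poor in them. The 25 gastrocnemius libraries were ranked, and the groups chosen by, the mean log2 CPM (reads scaled to library size, on a log2 scale) of 3 adipocyte genes, Adipoq, Plin1 and Cfd. The 8 highest mice were compared with the 8 lowest, so that 16 of 25 mice entered the comparison and 9 lay between. The comparison ran over the other 8826 of the 8829 genes in the table, with treatment as a covariate. The 3 ranking genes chose the mice, and their own differences are a description with no test.

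All mice were male SAMP8, a strain with accelerated senescence, with no further genetic change named. Vehicle (control, n = 11) or thymol at 20 mg per kg per day (n = 14) was given for 3 months from an age of 8 months. Each mouse had its own library of QuantSeq 3′ mRNA sequencing, which reads the 3′ ends of polyadenylated transcripts. The high group held 4 control and 4 thymol mice, the low group held 4 control and 4 thymol mice, and the group between held 3 control and 6 thymol mice.

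White adipocytes store triglyceride in a large lipid droplet coated by perilipins and release fatty acids through hormone-sensitive and triglyceride lipases. They also secrete proteins into the blood, among them adiponectin, adipsin, resistin and retinol-binding protein. In skeletal muscle, adipocytes lie between the fibres and between the fascicles, and fibro-adipogenic progenitors, the mesenchymal cells that support muscle repair, can turn into them.

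Depth was taken from the whole reads behind the deposited values and ran from 4463818 to 8845982 reads in the high group and from 5607926 to 8585679 in the low group. The log2 depth, high minus low, differed by -0.064 (standard error 0.13, two-sided exact permutation test, p = 0.658). The mitochondrial genome's share of reads was 22.1% to 33.9% in the high group and 22% to 30.1% in the low group. On each of the first 3 principal components of the 25 libraries the farthest mouse was a high mouse, namely control mouse 18, thymol mouse 20 and control mouse 19. Their distances from the centre were 29.3, 24.5 and 29.8, and the next mouse on the same component lay at 15.1, 16.6 and 16.7. Results that rest on these 3 libraries are given with and without them.

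The marker mean was spread over the 25 mice with no wide gap at the group borders. It was 6.31 ± 0.79 log2 CPM (SD, n = 8) in the high group, 4.64 ± 0.48 (SD, n = 9) between the groups and 2.92 ± 0.77 (SD, n = 8) in the low group. The 8 high mice, from the top, were control 19 (7.59), thymol 7 (7.43), thymol 20 (6.53), control 18 (5.98), control 35 (5.85), thymol 24 (5.81), thymol 21 (5.71) and control 27 (5.58). Control 19 and thymol 7 stood above the rest. The 8 low mice, from the border down, were thymol 22 (3.73), control 10 (3.5), control 23 (3.46), control 1 (3.06), thymol 16 (2.99), thymol 9 (2.78), control 31 (2.59) and thymol 3 (1.27). Thymol 3 was the lowest by more than 1 log2 unit. Just outside the high group was thymol 6 at 5.32, and just outside the low group was control 15 at 3.97.

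**Figure D1:**
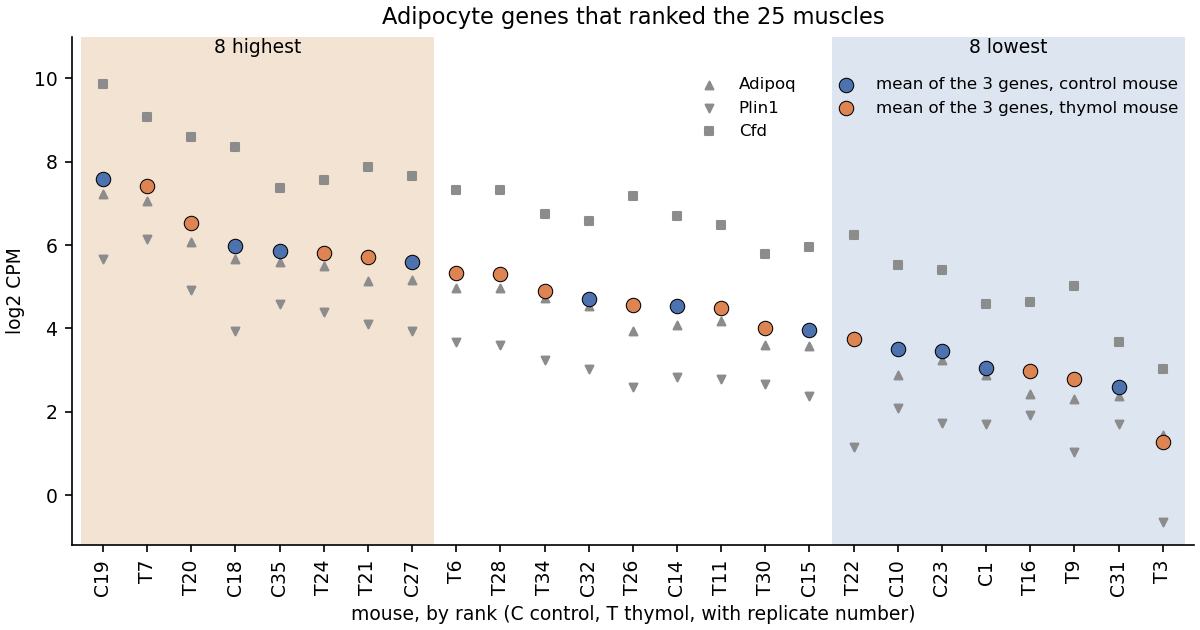
Log2 CPM of Adipoq, Plin1 and Cfd (grey) and their mean (blue for control, orange for thymol) in the 25 mice, ordered by that mean, with the 8 highest and the 8 lowest shaded. The mean falls from 7.59 in control mouse 19 to 1.27 in thymol mouse 3, and both colours occur among the highest, the middle and the lowest mice.

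Adipoq, which encodes the hormone adiponectin, lies on chromosome 16 of GRCm38 from 23146536 to 23158028 on the plus strand. Its log2 CPM was 1.44, 2.65 and 3.81 (lowest, median and highest) in the low mice and 5.15, 5.62 and 7.23 in the high mice. Plin1, the perilipin that coats the adipocyte lipid droplet, lies on chromosome 7 from 79720218 to 79732903 on the minus strand, with -0.64, 1.71 and 2.09 in the low mice and 3.93, 4.49 and 6.16 in the high mice. Cfd, the serine protease adipsin, lies on chromosome 10 from 79890853 to 79892655 on the plus strand, with 3.03, 4.83 and 6.24 in the low mice and 7.37, 8.12 and 9.87 in the high mice. By choice of the mice the groups were apart in all 3 genes, and the log2 differences, high minus low, were 3.25 for Adipoq, 3.37 for Plin1 and 3.53 for Cfd. Thymol mouse 3 had 13 reads of Adipoq, 2 of Plin1 and 42 of Cfd, and control mouse 19 had 1149, 391 and 7213. Together the 3 genes took between 0.001% and 0.0088% of reads in the low mice and between 0.0231% and 0.120% in the high mice.

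The sequences before the starts of these 3 genes are shown because they are the genes that define the groups and moved together across the mice. They are from RefSeq on GRCm38.p6, read 5′ to 3′ on the gene's strand, with matches to the searched motifs in capitals. The stretches are chr16:23146286-23146535 (plus) for Adipoq, chr7:79732904-79733026 (minus) for Plin1 and chr10:79890603-79890852 (plus) for Cfd. For Plin1 the stretch ends at 123 bases, where the gene model of GENCODE M21 begins.
Adipoq: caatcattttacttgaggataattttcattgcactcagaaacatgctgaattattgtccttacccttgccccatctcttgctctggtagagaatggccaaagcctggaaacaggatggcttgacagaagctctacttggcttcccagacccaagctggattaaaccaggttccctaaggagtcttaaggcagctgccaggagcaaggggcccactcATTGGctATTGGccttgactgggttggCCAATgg
Plin1: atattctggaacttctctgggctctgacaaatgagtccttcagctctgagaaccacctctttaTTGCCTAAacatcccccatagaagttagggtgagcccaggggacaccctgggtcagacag
Cfd: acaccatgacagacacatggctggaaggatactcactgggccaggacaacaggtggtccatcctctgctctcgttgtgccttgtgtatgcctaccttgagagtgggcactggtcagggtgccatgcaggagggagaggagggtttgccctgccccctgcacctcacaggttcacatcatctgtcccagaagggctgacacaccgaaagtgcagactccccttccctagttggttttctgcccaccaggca

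A set of 4 motifs was searched on both strands in the 250 bases before each start. The CCAAT box (CCAAT) matched 3 times before Adipoq, in the last 34 bases, and is found in 37.5% of the 27025 genes with such a sequence. The C/EBP-type motif (TTNNGCAA) matched in the printed stretch of Plin1 and is found in 10.8% of genes. The nuclear receptor half-site (AGGTCA, in 15.8% of genes) and the TATA box (TATAAA, in 14.3%) had no match before the 3 genes, and Cfd had no match to any of the 4. Of the 21 genes called higher below that have a promoter entry, 8 held CCAAT, 3 TTNNGCAA, 2 AGGTCA and 5 TATAAA. Over the 7049 genes of the expression table with such a sequence, the shares were 39.9% for CCAAT, 8.9% for TTNNGCAA, 12.8% for AGGTCA and 8.1% for TATAAA. The motifs do not overlap in the sequences shown, and a match describes letters, not binding.

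The marker mean did not differ between the treatments beyond the spread between mice. The marker mean was 4.63 ± 1.61 log2 CPM (SD, n = 14) in thymol mice and 4.62 ± 1.51 (SD, n = 11) in control mice. The difference, thymol minus control, was 0.0096 (standard error 0.63, two-sided permutation test with 100000 resamples, p = 0.987). With single genes it was 0.0034 for Adipoq (p = 0.996), -0.085 for Plin1 (p = 0.898) and 0.11 for Cfd (p = 0.872), by the same permutation test. The spread between mice of 1 treatment was far larger than these differences, and 2 standard errors span more than 1 log2 unit either way.

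Across the other genes, 14 of the 33 called genes belonged to the adipocyte lists of droplet, secreted, synthesis, uptake and transcription factor genes, and 19 to none of the adipocyte lists. In that order, 3 of 17, 3 of 11, 6 of 21, 1 of 13 and 1 of 14 tested members were called, against 0.374% of all genes. These lists were chosen with earlier results of these data known. Only 1 called gene was lower in the high mice. Of 8826 genes, 33 (0.374%) had an adjusted p under 0.05, of which 32 (0.363%) were higher and 1 (0.0113%) was lower in the high mice (limma with treatment as covariate, Benjamini-Hochberg over 8826 genes, as for every adjusted p below). The log2 differences of the 32 higher genes ran from 0.53 to 3.87, and 12 of them were over 4-fold, while the median over all genes was -0.00395 and the median standard error 0.14. All 8 high mice lay above all 8 low mice in 23 genes (0.261%), 22 of which were called, and all 8 lay below in 2 genes (0.0227%), of which 1 was called. Without adjustment, p was under 0.05 for 391 higher genes (4.43%) and 222 lower genes (2.52%). Without control 18, control 19 and thymol 20 together, 21 genes were called, all 21 among the 33 and all higher. The table holds only genes with at least 30 reads in at least 6 samples. Hp, Retn, Cyp2e1, Pck1, Slc1a3, Rbp4, Pde3b, Nnat, Glb1l2, Prkar2b, Pygl and C4b, all called, had medians under 30 reads in the low mice. Their entry into the table therefore needed reads in other mice. Genes with few reads in the high mice could enter through the other mice in the same way. The part of this filter in the split of higher and lower calls was not tested. In bulk tissue, more adipocytes and more RNA per adipocyte cannot be told apart.

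**Figure D2:**
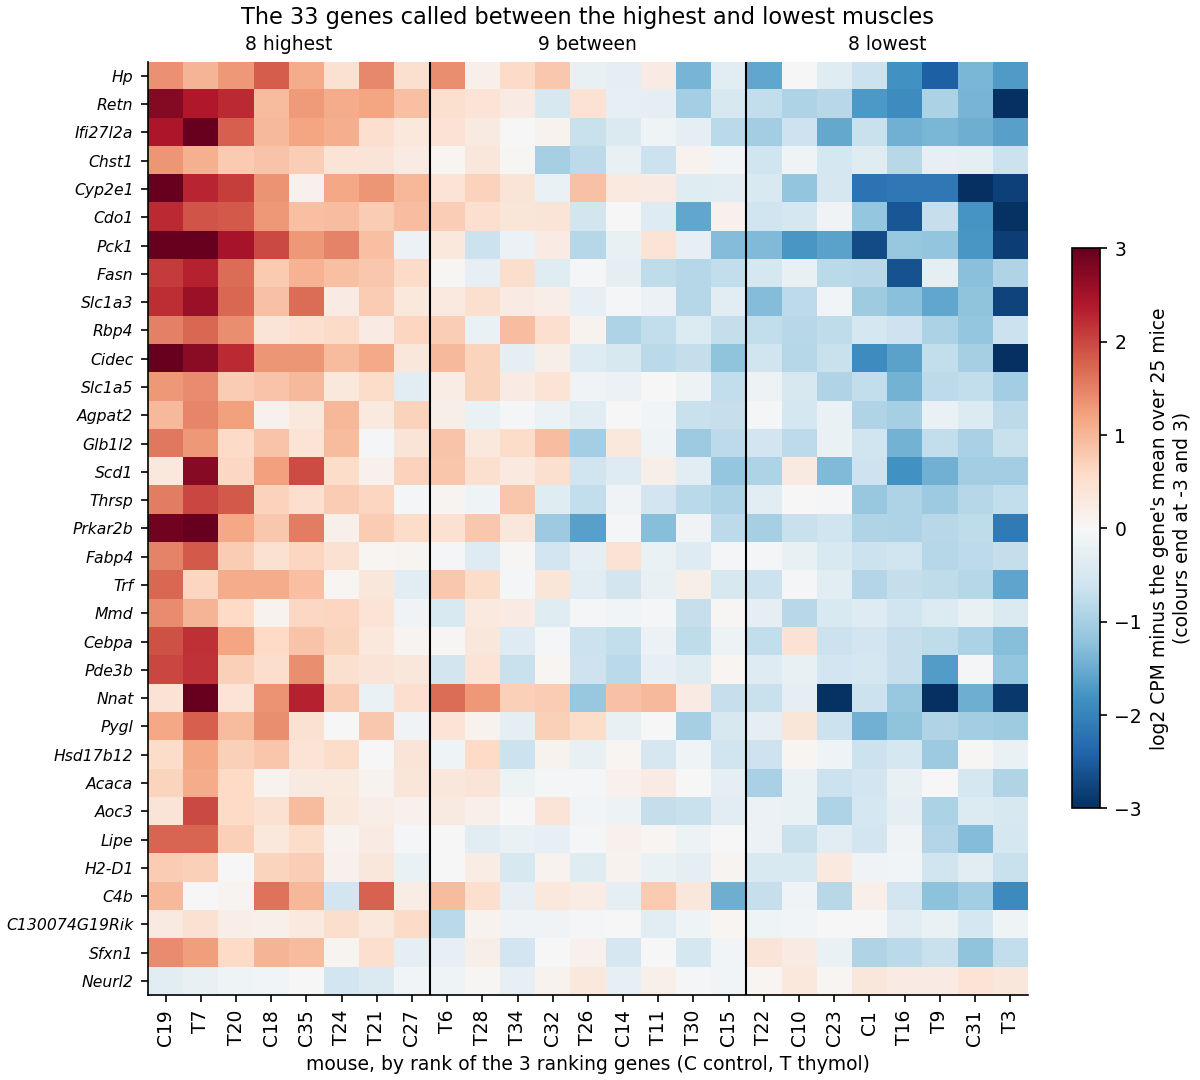
Log2 CPM of the 33 called genes (rows, by p within direction) in the 25 mice (columns, by rank of the 3 ranking genes), as the difference from the gene's mean over 25 mice, with red above and blue below it. Most of the 32 higher genes turn from red to blue across the 9 mice between the groups. Lipe and C130074G19Rik do not fall across these 9 mice, and Neurl2 in the last row runs the other way over the 25 mice.

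Genes of the lipid droplet and of lipolysis came with 3 of 17 tested members called higher, 0 lower and 14 not called, with a median log2 difference of 0.26. Cidec, a protein that fuses lipid droplets in white adipocytes, had a log2 CPM of -0.64, 2.10 and 2.44 (lowest, median, highest) in the low mice and 3.36, 4.35 and 6.09 in the high mice. The groups did not overlap, and the log2 difference was 3.01 (standard error 0.42, adjusted p = 0.000438), or 8.05-fold. Pde3b, the phosphodiesterase through which insulin lowers cAMP in adipocytes, ran from 0.45 to 2.09 in the low mice (median 1.56) and from 2.46 to 4.29 in the high mice (median 2.74), a difference of 1.66 (standard error 0.29, adjusted p = 0.00459). Lipe, the hormone-sensitive lipase, ran from 3.58 to 4.78 (median 4.33) and from 4.82 to 6.63 (median 5.32), a difference of 1.24 (standard error 0.24, adjusted p = 0.0159), and lost its call without the 3 libraries that stood apart (adjusted p = 0.108). Both genes were apart between the groups, Lipe by the narrower margin, and Lipe overlaps 4732471J01Rik on the other strand. Other members of the list were not called. Pnpla2, the first lipase of triglyceride breakdown, differed by 0.36 (adjusted p = 0.503), Plin2 by 0.37 (adjusted p = 0.698) and Plin4 by 0.26 (adjusted p = 0.792). Bscl2, the seipin of droplet formation, differed by 0.56 (adjusted p = 0.106). In the slope over 25 mice on the marker mean, Pnpla2 (adjusted p = 0.0154) and Bscl2 (adjusted p = 0.0103) were called.

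Of 11 secreted adipocyte proteins tested, 3 were called higher and 0 lower, with a median of 0.47. That median was 0.28 without thymol mouse 20, 0.308 without control mouse 1 and 0.739 without control mouse 19. Retn, which encodes the hormone resistin, had -0.27, 2.0 and 2.44 log2 CPM in the low mice and 4.08, 4.40 and 5.94 in the high mice. It was apart between the groups with a difference of 3.09 (standard error 0.35, adjusted p = 0.000102), or 8.53-fold. Rbp4, the retinol carrier of the blood, ran from 0.83 to 1.46 (median 1.23) and from 2.22 to 3.71 (median 2.59), a difference of 1.66 (standard error 0.23, adjusted p = 0.000438). Nnat, the small membrane protein neuronatin, ran from -0.56 to 2.64 (median 1.61) and from 2.71 to 6.16 (median 3.55), a difference of 2.79 (standard error 0.50, adjusted p = 0.00668). Nnat was the most uneven of the 3 within groups, overlaps Blcap on the other strand, and was not called by voom on the recovered reads (adjusted p = 0.0817). Apoe, the lipoprotein component made by many cell types, differed by 0.84 with overlapping groups (adjusted p = 0.0774).

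Fatty acid and triglyceride synthesis held the largest number of called members, with 6 of 21 higher, 0 lower and a median of 0.35. Pck1, the cytosolic phosphoenolpyruvate carboxykinase that supplies the glycerol backbone in adipocytes, had the largest difference of all called genes. Its log2 CPM was -0.27, 0.89 and 1.42 in the low mice and 2.40, 4.29 and 6.99 in the high mice, a difference of 3.87 (standard error 0.51, adjusted p = 0.000313), or 14.6-fold. The groups were apart, with median reads of 12.5 against 125.5, and voom on the recovered reads did not call it (adjusted p = 0.0757). Fasn, the fatty acid synthase, ran from 2.24 to 4.63 (median 4.02) and from 5.43 to 7.16 (median 5.82), a difference of 2.20 (standard error 0.30, adjusted p = 0.000438). Scd1, the desaturase that makes oleate, ran from 4.53 to 6.61 (median 5.31) and from 6.48 to 9.07 (median 7.0), a difference of 2.02 (standard error 0.32, adjusted p = 0.00156). Fasn was apart between the groups and Scd1 overlapped at the border. Agpat2, the acyltransferase that makes phosphatidic acid in adipocytes, differed by 1.27 (standard error 0.19, adjusted p = 0.00101), and its gene overlaps Egfl7 on the other strand. Thrsp, a lipogenic regulator of adipose tissue and liver, differed by 1.63 (standard error 0.26, adjusted p = 0.00187), and Acaca, the acetyl-CoA carboxylase that precedes Fasn, by 0.94 (standard error 0.18, adjusted p = 0.0101). Acaca lost its call without the 3 libraries that stood apart (adjusted p = 0.118).

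Uptake genes and transcription factors each had 1 called member. Fabp4, the fatty acid binding protein of adipocytes, which endothelial cells and macrophages also make, had 7.39, 7.62 and 8.18 log2 CPM in the low mice and 8.30, 8.80 and 10.10 in the high mice. The groups were apart, and the difference was 1.27 (standard error 0.21, adjusted p = 0.00267), or 2.41-fold. The other 12 of 13 uptake genes were not called, and the list's median was 0.08, or 0.031 to 0.14 with 1 mouse left out (lowest without thymol mouse 7, highest without control mouse 10). Lpl, the lipoprotein lipase, differed by 0.19 (adjusted p = 0.841), and Cd36, the fatty acid transporter that muscle fibres also carry, by 0.08 (adjusted p = 0.917). Trarg1, a partner of the insulin-responsive glucose transporter, ran from -0.29 to 2.05 (median 1.25) and from 1.87 to 4.72 (median 2.84), a difference of 1.73 with an adjusted p of 0.0543. It was called with the 25-mouse slope on the marker mean (adjusted p = 2.71e-05).

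Of 14 adipocyte transcription factors, Cebpa, which holds the mature adipocyte state, was called. It ran from 1.94 to 3.64 (median 2.51) in the low mice and from 3.30 to 5.42 (median 3.98) in the high mice, a difference of 1.63 (standard error 0.28, adjusted p = 0.00391) with overlap through control mouse 10. Without the 3 libraries that stood apart its adjusted p was 0.0569. The list's median was 0.13, or 0.050 without control mouse 19, and Ebf2, a factor of adipocyte precursors, differed by 0.49 (adjusted p = 0.332). None of 5 brown adipocyte genes was called (limma, with 1 of them lower at an unadjusted p under 0.05), and their median was -0.11, with the sign changing in at least 1 alternative setting. Cidea, a droplet protein of brown adipocytes, differed by 0.55 (adjusted p = 0.857) and Cox8b, a respiratory subunit that muscle also makes, by -0.14 (adjusted p = 0.706). Of the markers listed for the adipocyte beside the ranking genes, a list of 8 chosen with earlier results of these data known, the 6 in the table (Fabp4, Cidec, Retn, Lipe, Fasn and Pck1) were called higher, and Lep and Pparg were not analysed here. Lpl, Cd36, Plin2, Plin4 and Pnpla2, which other cells of muscle also express, are not on that list and were not called. Fabp4, which endothelial cells and macrophages also make, is on it and was called.

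A total of 19 called genes were in none of the adipocyte lists. Hp, the haemoglobin-binding plasma protein haptoglobin, which liver and adipose tissue secrete, had the smallest p of all genes. Its log2 CPM was 0.58, 1.56 and 3.03 in the low mice and 3.49, 4.24 and 4.84 in the high mice. The groups were apart, with a difference of 2.37 (standard error 0.25, adjusted p = 7.36e-05), or 5.16-fold. Hp lies on chromosome 8 from 109575128 to 109579172 on the minus strand. Ifi27l2a, an interferon-induced gene, ran from 2.20 to 3.20 (median 2.42) and from 4.13 to 6.81 (median 4.95), a difference of 2.63 (standard error 0.31, adjusted p = 0.000102). Its groups were nearly 1 log2 unit apart, and its 3′ end shares a small part of its sequence with Ifi27l2b.

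Enzymes of amino acid and xenobiotic metabolism were among them. Cyp2e1, a cytochrome P450 of liver and fat, ran from -0.29 to 2.83 (median 1.13) and from 3.40 to 6.96 (median 4.61), a difference of 3.5 (standard error 0.46, adjusted p = 0.000308), or 11.3-fold. Cdo1, the cysteine dioxygenase that begins the route to taurine, ran from 0.48 to 3.34 (median 2.51) and from 4.19 to 5.67 (median 4.55), a difference of 2.64 (standard error 0.35, adjusted p = 0.000308). Both were apart between the groups. Pygl, the liver form of glycogen phosphorylase, differed by 1.59 (standard error 0.29, adjusted p = 0.00668), and Hsd17b12, an enzyme of very long chain fatty acid elongation, by 0.97 (standard error 0.18, adjusted p = 0.00699). Pygl and Hsd17b12 overlapped between the groups and lost their calls without the 3 libraries that stood apart (adjusted p = 0.196 and 0.124). Of the sequence words at the 3′ ends of Cyp2e1, Pygl and Acaca, 17.9%, 16.3% and 22.7% also occur in other annotated genes, so part of their reads could be split by the counting.

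Transporters and signalling genes followed. Slc1a3, a glutamate and aspartate transporter, ran from -0.64 to 2.05 (median 0.91) and from 2.39 to 4.74 (median 3.42), a difference of 2.56 (standard error 0.36, adjusted p = 0.000438). Slc1a5, the glutamine transporter of the same family, ran from 2.74 to 4.0 (median 3.40) and from 3.82 to 5.57 (median 4.96), a difference of 1.51 (standard error 0.21, adjusted p = 0.000459). Slc1a3 was apart between the groups and Slc1a5 was not. Prkar2b, the regulatory subunit of protein kinase A that prevails in adipose tissue, ran from 0.02 to 1.54 (median 1.27) and from 2.28 to 5.41 (median 3.12), a difference of 2.36 (standard error 0.38, adjusted p = 0.00194). Aoc3, an amine oxidase of adipocytes and vessel walls, differed by 1.12 (standard error 0.21, adjusted p = 0.0107), and Sfxn1, a mitochondrial serine carrier, by 1.18 (standard error 0.25, adjusted p = 0.0379). Prkar2b and Aoc3 were apart between the groups and Sfxn1 overlapped. Sfxn1 lost its call in 16 of 32 alternative settings, and Aoc3 (adjusted p = 0.0625) lost it without the 3 libraries that stood apart.

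The rest of the called genes were of mixed function. Chst1, a sulfotransferase of carbohydrate chains, ran from 2.51 to 3.20 (median 2.89) and from 3.60 to 4.67 (median 4.10), a difference of 1.18 (standard error 0.15, adjusted p = 0.000308) with a standard error close to that of the median gene. Trf, the iron carrier transferrin, differed by 1.42 (adjusted p = 0.00274), Glb1l2, a relative of beta-galactosidase, by 1.49 (adjusted p = 0.00143) and Mmd, a membrane protein of the progestin receptor family, by 1.05 (adjusted p = 0.00298). Glb1l2 overlaps B3gat1 on the other strand. The 3′ end of Trf shares most of its sequence with the annotated gene Gm20425, so the counting could split its reads, and its adjusted p was 0.0599 without the 3 libraries that stood apart. Immune genes were among the called genes with the largest adjusted p. H2-D1, a class I histocompatibility gene, differed by 0.69 (standard error 0.14, adjusted p = 0.0316) and C4b, a complement component, by 1.42 (standard error 0.30, adjusted p = 0.0316). Both overlapped between the groups, and both share 3′ sequence with a near copy, H2-K1 and C4a. H2-D1 lost its call in 14 of 32 alternative settings and C4b in 13 of the 31 in which it was tested. C130074G19Rik, an uncharacterised gene, differed by 0.53 (standard error 0.11, adjusted p = 0.0316), lay apart between the groups and lost its call in 17 settings.

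Neurl2 was the only gene called lower. It encodes an adaptor of a ubiquitin ligase in muscle fibres and lies on chromosome 2 from 164830732 to 164833456 on the minus strand, where it overlaps Ctsa on the plus strand. Its log2 CPM was 4.32, 4.54 and 4.67 in the low mice and 3.7, 4.08 and 4.26 in the high mice. The groups were apart by a narrow margin, and the difference was -0.48 (standard error 0.10, adjusted p = 0.025). Neurl2 was not called in 12 of 32 alternative settings, with adjusted p up to 0.118. The counting strand is not given in the sources used here, so reads of Neurl2 and Ctsa cannot be told apart. Krt222, a keratin-like gene, was the other gene in which all high mice lay below all low mice, with -0.82 (adjusted p = 0.135).

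The 9 mice between the groups did not enter the comparison. The slope of each gene on the marker mean in these 9 mice, with treatment as a covariate, had the sign of the high-minus-low difference in 31 of the 33 called genes, against 54.4% of all genes. The 2 exceptions were Lipe and C130074G19Rik. That slope had a p under 0.05, without adjustment, in 16 of the 33, all 16 rising, and in 461 (5.22%) of all genes. Cdo1 rose by 1.36 log2 units per unit of the marker mean (p = 0.000123), Cidec by 1.39 (p = 0.000148) and Hp by 1.45 (p = 0.000881), each in limma with no adjustment. The 9 mice span a narrow range of the marker mean, from 3.97 to 5.32, and their values were scaled with those of the other mice.

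Within the groups the called genes followed a few mice. Thymol mouse 7 had the highest level of all 25 mice in 18 of the 32 higher genes and control mouse 19 in 11. Thymol mouse 3 had the lowest in 11. These are the top and bottom mice of the ranking. The 32 genes together took a median of 0.140% of reads in the high mice, from 0.0923% to 0.318%, and of 0.051% in the low mice, from 0.0421% to 0.0723%.

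Both treatments showed the difference. In all 32 higher genes the high mice were on average above the low mice among control mice and among thymol mice. Each treatment had 4 against 4 mice. The 32 genes were called on these same mice, with both treatments together. The shared sign was therefore largely set by that choice and is not a separate test. The difference was larger among thymol mice in 29 of the 32. All 32 were read in the same 16 mice, so the 29 are not separate observations. The marker mean itself differed by 3.67 log2 units among thymol mice and by 3.10 among control mice. No gene had an adjusted p under 0.05 for the interaction of group and treatment (limma, 384 genes at an unadjusted p under 0.05, smallest adjusted p 0.996). Hp differed by 2.94 among thymol and by 1.79 among control mice, and was the 1 called gene with an unadjusted interaction p under 0.05 (p = 0.0195 in limma).

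**Figure D3:**
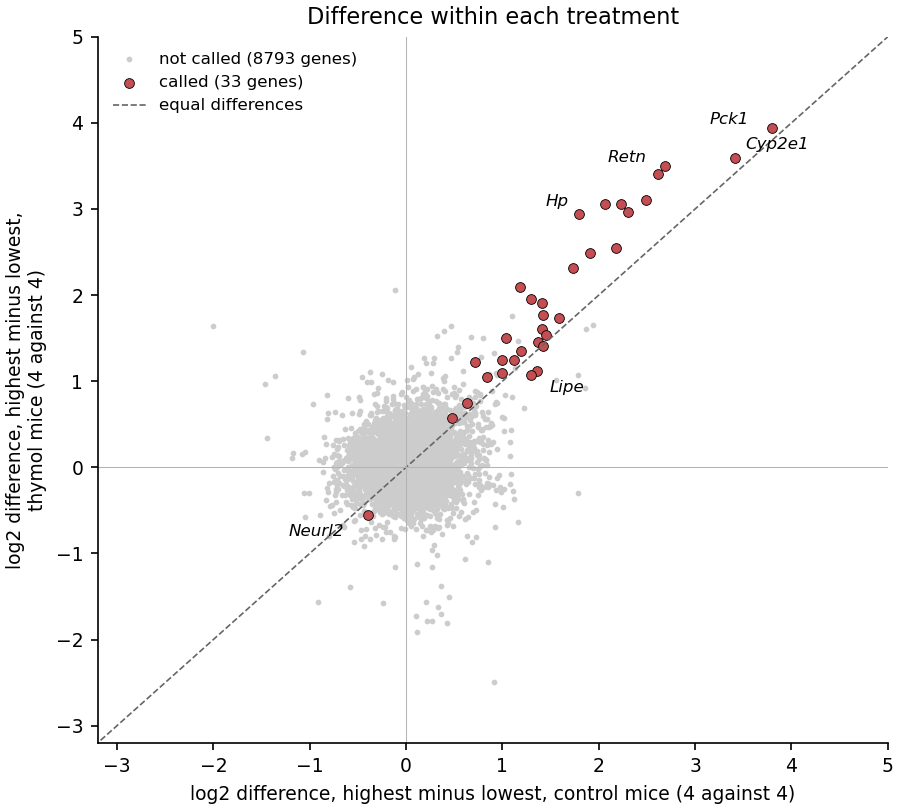
Log2 difference, 8 highest minus 8 lowest, among control mice (x axis, 4 against 4) and among thymol mice (y axis, 4 against 4) for 8826 genes, with the 33 called genes in red and a dashed line of equal differences. The 32 higher genes lie in the upper right on both axes, 29 of them above the line, and Neurl2 lies in the lower left.

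Among other cell types, macrophage genes had the highest list median, and none of them passed the test across all genes. Of 18 macrophage and antigen presentation genes, 0 were called (limma), 18 had a positive difference and 15 had an unadjusted p under 0.05, with a median of 0.69. Over all genes, 4.43% were higher and 2.52% lower at that unadjusted threshold, and the median was -0.00395. The same values stand beside the lists that follow. Laptm5, a lysosomal protein of leukocytes, ran from 1.71 to 3.81 (median 2.89) in the low mice and from 2.63 to 4.80 (median 3.92) in the high mice, a difference of 0.98 (adjusted p = 0.167). Lyve1, a hyaluronan receptor of tissue macrophages and lymph vessels, differed by 0.70 (adjusted p = 0.22), Csf1r, the receptor for macrophage growth factor, by 0.67 (adjusted p = 0.565) and C1qa, a complement chain made by macrophages, by 0.61 (adjusted p = 0.527). All 4 overlapped between the groups. The called immune genes H2-D1 and C4b were not on this list. The summed level of the 18 genes ran from 299 to 530 CPM in the low mice and from 349 to 960 CPM in the high mice, with the top values in control mouse 18, control mouse 35 and thymol mouse 20. The median of the list was 0.59 without the 3 libraries that stood apart, where Laptm5 (adjusted p = 0.689) and Lyve1 (adjusted p = 0.809) were not called. Both were called without control mouse 27 (adjusted p = 0.0433 and 0.0382). Neither was called without thymol mouse 20 (adjusted p = 0.3745 and 0.4201) or without control mouse 18 (adjusted p = 0.3774 and 0.3754). The top 2 mice of the ranking, control mouse 19 (408 CPM) and thymol mouse 7 (370 CPM), lay below low control mouse 10 (530 CPM), so the sums did not follow the ranking mouse by mouse. The part of macrophage levels in the called genes was not tested. Of 3 mast cell genes, 0 were called (limma, 2 at an unadjusted p under 0.05), with a median of 0.65.

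Stromal genes had smaller medians. Of 17 genes of fibro-adipogenic progenitors, 0 were called (limma, 4 higher and 1 lower at an unadjusted p under 0.05), with a median of 0.32, or 0.196 without control mouse 18. Gsn, an actin-severing protein abundant in these cells, differed by 0.43 (adjusted p = 0.0845, called with adjusted p = 0.0209 in the slope over 25 mice) and Dpt, a matrix protein of fibroblasts, by 0.60 (adjusted p = 0.532). Pdgfra, the receptor that defines the progenitors, differed by 0.16 (adjusted p = 0.885). Of 32 collagen and matrix genes, 0 were called (limma, 6 higher at an unadjusted p under 0.05), 26 had a positive difference and the median was 0.27, or 0.155 without control mouse 18 and 0.147 without thymol mouse 21. Their summed level ran from 1522 to 2633 CPM in the low mice and from 1380 to 4598 CPM in the high mice, and was highest in control mouse 18 and thymol mouse 21. Control mouse 19, the top of the ranking, had the lowest collagen sum of all 25 mice.

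Vessel, nerve and tendon genes had medians near 0. The median was -0.02 over 19 endothelial genes, -0.09 over 13 smooth muscle and pericyte genes, -0.16 over 8 Schwann cell genes, -0.06 over 11 tendon genes, 0.01 over 5 erythroid genes and -0.16 over 5 satellite cell genes, and 0 genes of these lists were called (limma, 1 endothelial gene higher and 1 smooth muscle gene lower at an unadjusted p under 0.05). The endothelial gene was Ly6e, a surface protein induced by interferon, with a difference of 0.60 (adjusted p = 0.053, called with adjusted p = 0.00201 in the slope over 25 mice). Kdr, the endothelial receptor for vascular growth factor, differed by -0.10 (adjusted p = 0.915). The direction of all these medians but that of smooth muscle changed in at least 1 alternative setting. Lymphocyte genes had 0 of 16 in the table and were not analysed here.

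**Figure D4:**
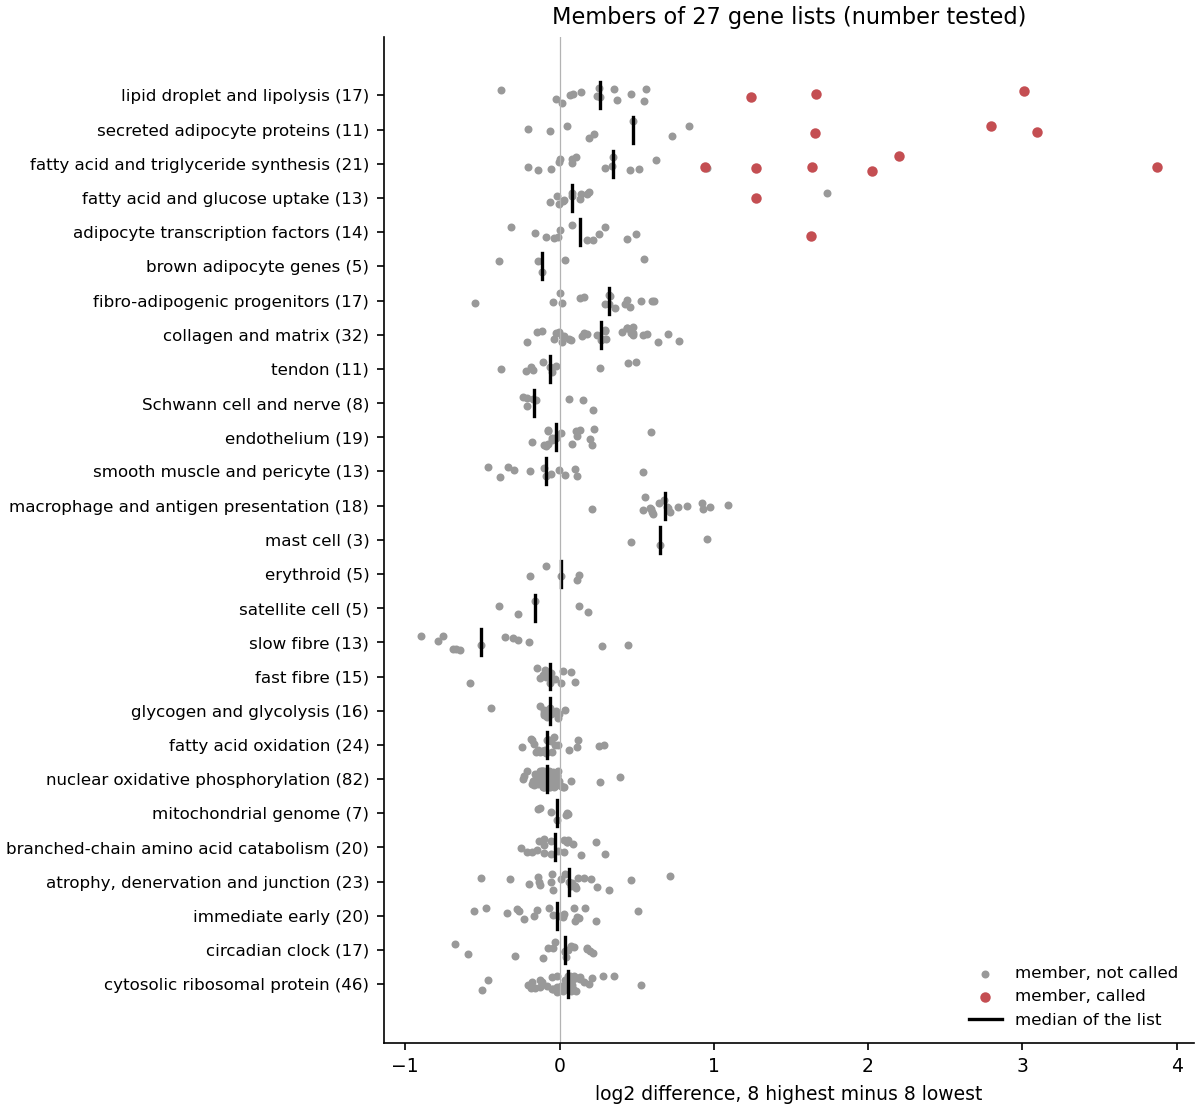
Log2 difference, 8 highest minus 8 lowest, of each tested member (points) of 27 gene lists, with called members in red and the list's median as a black bar. Called members occur in 5 adipocyte lists and in no other list, and the macrophage median of 0.69 is the highest median.

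No gene of the muscle lists was called, and Neurl2, called lower above, is on none of them. Of 82 nuclear genes of oxidative phosphorylation, 0 were called (limma, 2 higher and 2 lower at an unadjusted p under 0.05), and 76 had a negative difference of small size, with a median of -0.08, or -0.0408 without control mouse 19 and -0.0504 without thymol mouse 21. Fatty acid oxidation (24 genes) had a median of -0.08 and glycogen and glycolysis (16 genes) of -0.06. Fast fibre genes (15 genes) had a median of -0.06 and branched-chain amino acid catabolism (20 genes) of -0.03, with 0 called in each of these lists. In the same order, 19, 15, 11 and 11 of their genes had a negative difference and the rest a positive one. The 7 mitochondrial genome genes had a median of -0.02, 46 cytosolic ribosomal protein genes of 0.06, 23 atrophy and denervation genes of 0.06, 20 immediate early genes of -0.02 and 17 clock genes of 0.04, again with 0 called. The signs of the fatty acid oxidation, amino acid, mitochondrial genome, ribosomal, atrophy, immediate early and clock medians changed in at least 1 alternative setting. Without adjustment, p was under 0.05 in limma for 1 glycolysis gene, 1 fatty acid oxidation gene and 1 clock gene, each lower, and for 1 ribosomal protein gene higher and 2 lower. Ckm, the muscle creatine kinase, was at 13.73 to 14.14 log2 CPM in the low and 13.63 to 14.03 in the high mice. Myh4, a fast myosin heavy chain, was at 14.97 to 15.39 in the low and 14.70 to 15.20 in the high mice. The slow myosin Myh7 varied far more and is given below.

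Slow fibre genes varied widely between mice. Their median was -0.51 over 13 genes, 11 of them negative, 0 called and 0 at an unadjusted p under 0.05 (limma). Myh7, the slow myosin heavy chain, ran from 5.64 to 9.29 (median 7.95) in the low mice and from 1.68 to 8.69 (median 7.74) in the high mice, a difference of -0.69 (adjusted p = 0.888). Tnnt1, slow troponin T, ran from 6.94 to 10.01 (median 8.6) and from 2.83 to 9.05 (median 8.28), a difference of -0.90 (adjusted p = 0.836). The lowest values of both were those of thymol mouse 20, without which the Myh7 difference was 0.083 and the list's median 0.0097. The median was -0.33 without thymol mouse 16, -0.262 without thymol mouse 22, -0.768 without control mouse 19 and -0.769 without control mouse 31. The summed slow fibre level was 2406 CPM (median) in the low mice, 6158 CPM in the 9 mice between and 2113 CPM in the high mice, so that it did not follow the order of the adipocyte genes.

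**Figure D5:**
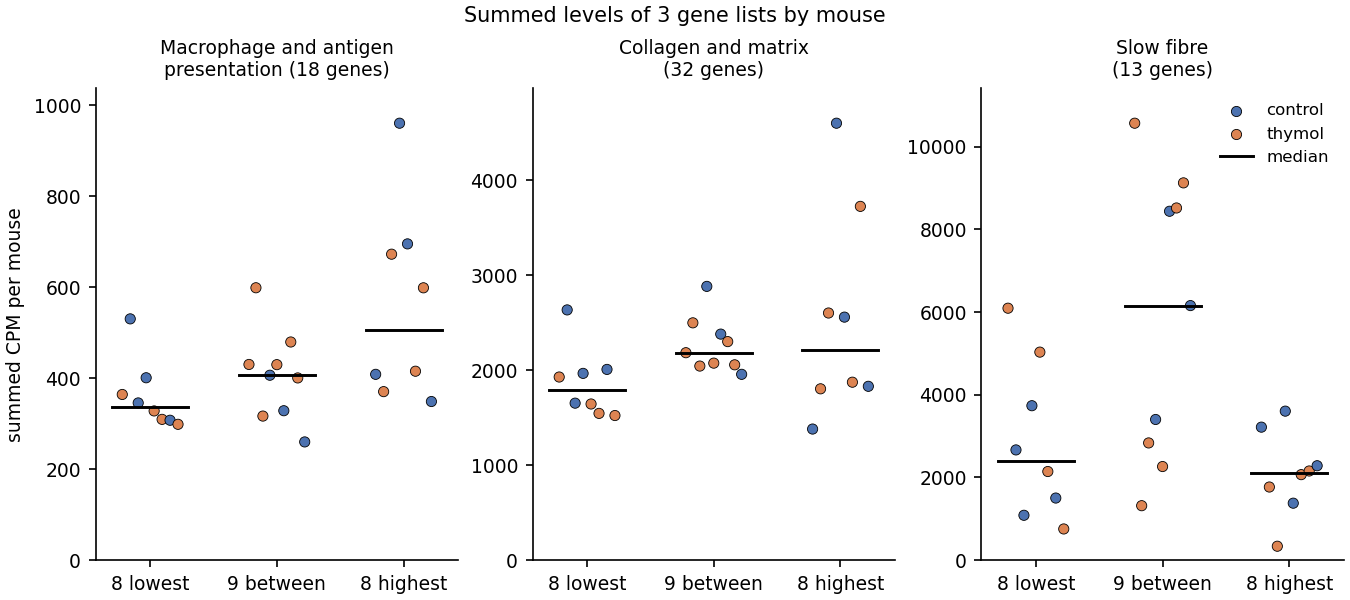
Summed CPM per mouse of 18 macrophage and antigen presentation genes, 32 collagen and matrix genes and 13 slow fibre genes, in the 8 lowest, the 9 between and the 8 highest mice (blue control, orange thymol, bar for the median). Macrophage sums overlap but reach 960 CPM in the high mice against 530 in the low mice, and slow fibre sums are highest in mice between the groups.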

How the data were processed

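Gastrocnemius RNA of 25 mice was analysed, grouped by the treatment in their titles and numbered by the last number there. According to the paper's methods and the submitters' processing notes, the authors aligned the 3′ reads with STAR 2.5.3 to GRCm38, counted them with HTSeq 0.6.1 (strand setting not given in the sources used here), kept genes with at least 30 reads in at least 6 samples and applied TMM scaling. The deposited values are log2 CPM for 8829 gene symbols. An offset was added before the log, so 0 reads (5 of 220725 values) stand at -1.90 and log2 differences of low genes are understated. Whole reads were recovered from the steps between values, within 0.1 read for 100.0% of them, and summed to 4463818 to 9463418 per mouse (median 7503259). They cover counting error only, since PCR copies are not marked.

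High and low mice were compared with limma 3.58.1 in R 4.3.3 on the deposited log2 values, with treatment as covariate, variances moderated with a trend (two-sided p), Benjamini-Hochberg adjustment over 8826 genes and a threshold of 0.05. The ranking genes were left out of the adjustment. P-values measure the spread between mice, 1 library each. The procedure was tested on simulated data. Permutation tests used scipy 1.17.1 with numpy 2.4.6 and pandas 2.3.3, and figures matplotlib 3.10.9. Positions are from GENCODE M21 on GRCm38.

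Named genes were the ranking genes, the 10 of lowest p among higher and among lower genes, the 4 of lowest p per adipocyte list and the 2 of lowest p per remaining list, of which 1 gene is not reported here. Other called genes and cell type markers were named after their values were seen. The ranking, the gene lists and the tests were chosen with earlier results of these data known, and prefix-defined lists lost assembly factors and kinases after the table was read. Alternatives were no covariate, quantile normalization, median centring, the 75% most abundant genes, no variance trend, voom on recovered reads, array weights, 6 or 10 mice per group, a slope over 25 mice, ranking by single genes, library number as covariate, the first label number as a block and each mouse left out in turn. Leaving out the 3 libraries that stand apart together was added after seeing the data.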

Additional observations from a re-analysis of the deposited data

Results flagged for a closer look

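Within the groups of 8 high and 8 low mice, 232 sets of 8 values were examined for a highest or lowest mouse whose gap to its neighbour took more than 0.526 of the group's range, and 20 did. About 5% would do so by chance. No explanation was weighed.

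Thymol mouse 3, the lowest of the ranking, was set apart among the low mice in 6 measures. These were the marker mean (1.27), Plin1 (-0.64), Retn (-0.27), Cidec (-0.64) and Prkar2b (0.025), each lowest, and Cox7a1 (8.91), which was highest, all in log2 CPM. Thymol mouse 20 was set apart among the high mice with the lowest Tnnt1 (2.83), Myh7 (1.68) and Myh2 (8.69), genes of slow and oxidative fibres, and the next lowest high mouse stood at 7.65 for Tnnt1 and at 6.87 for Myh7. Control mouse 19, the highest of the ranking, had the lowest Cox8b (8.47) and Cox7a1 (7.54) of the high mice, both respiratory subunits of muscle. Thymol mouse 7 had the highest Cidea (4.70) and Aoc3 (5.66) of the high mice.

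Control mouse 10 had the highest Cebpa (3.64) and Dpt (5.98) and the lowest Etfa (5.0), an electron carrier of fatty acid oxidation, among the low mice. The single flags were Apoe in control mouse 18 (9.46, highest) and Ebf2 in control mouse 27 (3.16, lowest) among the high mice, and Fasn in thymol mouse 16 (2.24, lowest) and Krt222 in thymol mouse 9 (3.06, highest) among the low mice. No gene was called for a difference between control and thymol mice in the high-minus-low contrast (limma, adjusted p of at least 0.996).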

How the results depend on the processing

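Of the 33 called genes, 0 changed direction and 19 kept their call wherever they were tested, 12 of them in all 32 alternative settings and 7 in the 31 other than the 75% most abundant genes, which did not hold them. Calls were lost in at least 12 settings by Neurl2, H2-D1, C4b, C130074G19Rik and Sfxn1, in 4 by Lipe and in 1 each by Pck1, Nnat, Cebpa, Trf, Pygl, Hsd17b12, Acaca and Aoc3. The number of calls was 21 (20 higher) among the 75% most abundant genes, where fewer genes were tested, 54 (54 higher, 0 lower) with 6 mice per group, 64 (61 higher, 3 lower) with the slope over 25 mice, which also called Trarg1, Ly6e, Bscl2, Pnpla2, Gsn, Ostn and Cry1 (the last 2 lower), and 21 (21 higher, 0 lower) without the 3 libraries that stand apart. With 10 mice per group 41 were called, 0 of them lower, and 2 were lower without the variance trend and with the ranking by Cfd alone. The cause of these changes was not tested. Leaving out 1 mouse gave between 27 calls (without thymol mouse 9) and 51 (without control mouse 27), with 27 to 49 higher and 0 to 2 lower. The library number covariate gave 34 calls and the block on the first label number, which some high and low mice share and whose meaning is not given, 33. The thymol-minus-control difference of the marker mean, with no call, was -0.0850 for Plin1 alone and ran from -0.206 to 0.307 with 1 mouse left out. The interaction gave 0 calls in all 3 fits (388 genes at an unadjusted p under 0.05 with 10 mice per group, smallest adjusted p 0.322). Genes not called changed sign near 0. Without the 3 libraries Slc27a1 was at -0.0688, Dio2 at 0.0682, Myod1 at 0.0305, mt-Co1 at 0.0261, Kdr at 0.0915 and Myh2 at 0.0355, and with 1 mouse left out Cox7a1 ran from -0.153 to 0.00503, Hbb-bs from -0.0320 to 0.237 and Myh7 from -0.958 to 0.0831. Genes with few reads in the low mice, such as Pck1 with a median of 12.5, are measured least precisely. The median standard error was 0.139 log2 units, which limits what 8 against 8 mice can show.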
